A study of Mus musculus with 123 samples.

Results

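The muscle splicing regulators described here are 9 genes for RNA-binding proteins that choose exons in striated muscle: Rbm20, Rbm24, Celf1, Celf2, Mbnl1, Mbnl2, Rbfox1, Rbfox2 and Ptbp1. They were picked by name, and each was matched to its own row among the 23337 gene symbols of the deposited count table. The cells were single αMHC+ cells, sorted by GFP from αMHC-GFP mice at 3 ages (E9.5, E12.5 and P1) and captured on Fluidigm C1 chips. In this strain the α-myosin heavy chain promoter drives GFP, so every group carries the transgene, and the sort keeps cells in which that promoter is or was active. The labels name no other allele or agent. Hearts were dissociated with collagenase in the embryos but with Liberase enzymes after birth, so that enzyme and age cannot be told apart at P1.

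Of 123 deposited cells, 112 had 2000 or more genes at 1 count or more and were used, which leaves 42, 29 and 41 cells in time order. The labels name no animal, litter or chip, so each time point is 1 sample, there are no replicates and no test across cells was made. Cell titles carry prefixes, called naming sets here: C (14 cells) and N530 (28 cells) for E9.5, C (20 cells), N523 (8 cells) and E12-5b (1 cell) for E12.5, and C alone for P1. Total counts of a cell lay between 268301 and 6351742, between 148258 and 7711355, and between 69522 and 327360 in time order. Sets N530 and N523 were the deeper ones, with median totals of 3151950 and 4895290 counts against 415428 and 389394 in set C of those ages. The cardiac markers Tnnt2 and Actc1 both reached 100 CPM (counts per 1000000 counts of the cell) in 39 of 42, 29 of 29 and 40 of 41 cells. All triples of values below are in the order E9.5, E12.5, P1.

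Alternative splicing in heart muscle is steered by proteins that bind short RNA motifs in or beside an exon and either block or help its use. RBM20 and RBM24 act largely on sarcomere and calcium-handling transcripts such as titin. CELF and muscleblind (MBNL) proteins often act on the same exons in opposite directions, and the developing heart is known for a shift from CELF toward muscleblind activity after birth. RBFOX proteins bind the motif GCAUG near many muscle and brain exons, and PTBP1 mainly represses exons of differentiated cells. The values below are transcript levels per gene, in which neither protein nor exon choice shows.

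Of the 9 genes, Mbnl1 was higher in P1 cells than at both earlier ages, Celf1 and Rbfox2 were lower at P1 than at E9.5, Rbm20 was higher at P1 than at E12.5, and Celf2 was higher at E12.5 than at E9.5. A gene's level is the mean CPM over cells, and ratios between ages are log2 ratios of these means. A gene was called higher or lower where the ratio was 2-fold or more and had the same direction in every combination of naming sets with at least 6 cells. Genes whose group means averaged under 10 CPM were not compared, which left 8 of the 9 in the ratios of E12.5 to E9.5 and P1 to E9.5 and 7 in the ratio of P1 to E12.5. In E12.5 to E9.5, 1 of 8 was called higher and 0 lower, against 8.84% and 17.0% of all genes compared. In P1 to E9.5 these were 1 and 2 of 8, against 16.9% and 34.8%. In P1 to E12.5 these were 2 and 0 of 7, against 16.4% and 23.0%. Such small numbers do not set the regulators apart from all genes. Most of the calls were lost in at least 1 alternative, given with each gene.

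In deposited TPM (transcripts per 1000000), which are per length and allow genes to be compared, Rbm24 had the highest mean level of the 9 at every age, with 202, 276 and 162 TPM. At E9.5 Mbnl2 (84.4 TPM), Celf1 (72.3 TPM), Rbfox2 (70.6 TPM) and Mbnl1 (67.7 TPM) followed. This order did not hold across naming sets, since Mbnl1 came first of these 4 in set C (103 TPM) and last in set N530 (49.9 TPM). At P1 Mbnl1 came after Rbm24 with 138 TPM and Mbnl2 with 75.6 TPM, while Rbm20 (26.4 TPM), Rbfox2 (23.2 TPM), Celf2 (22.2 TPM) and Celf1 (17.4 TPM) lay close together. Ptbp1 and Rbfox1 had the lowest TPM of the 9 over all cells of each age, but in set C of E9.5 Ptbp1 (41.1 TPM) lay above Celf2 (19.0 TPM) and Rbm20 (8.55 TPM).

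**Figure D1:**
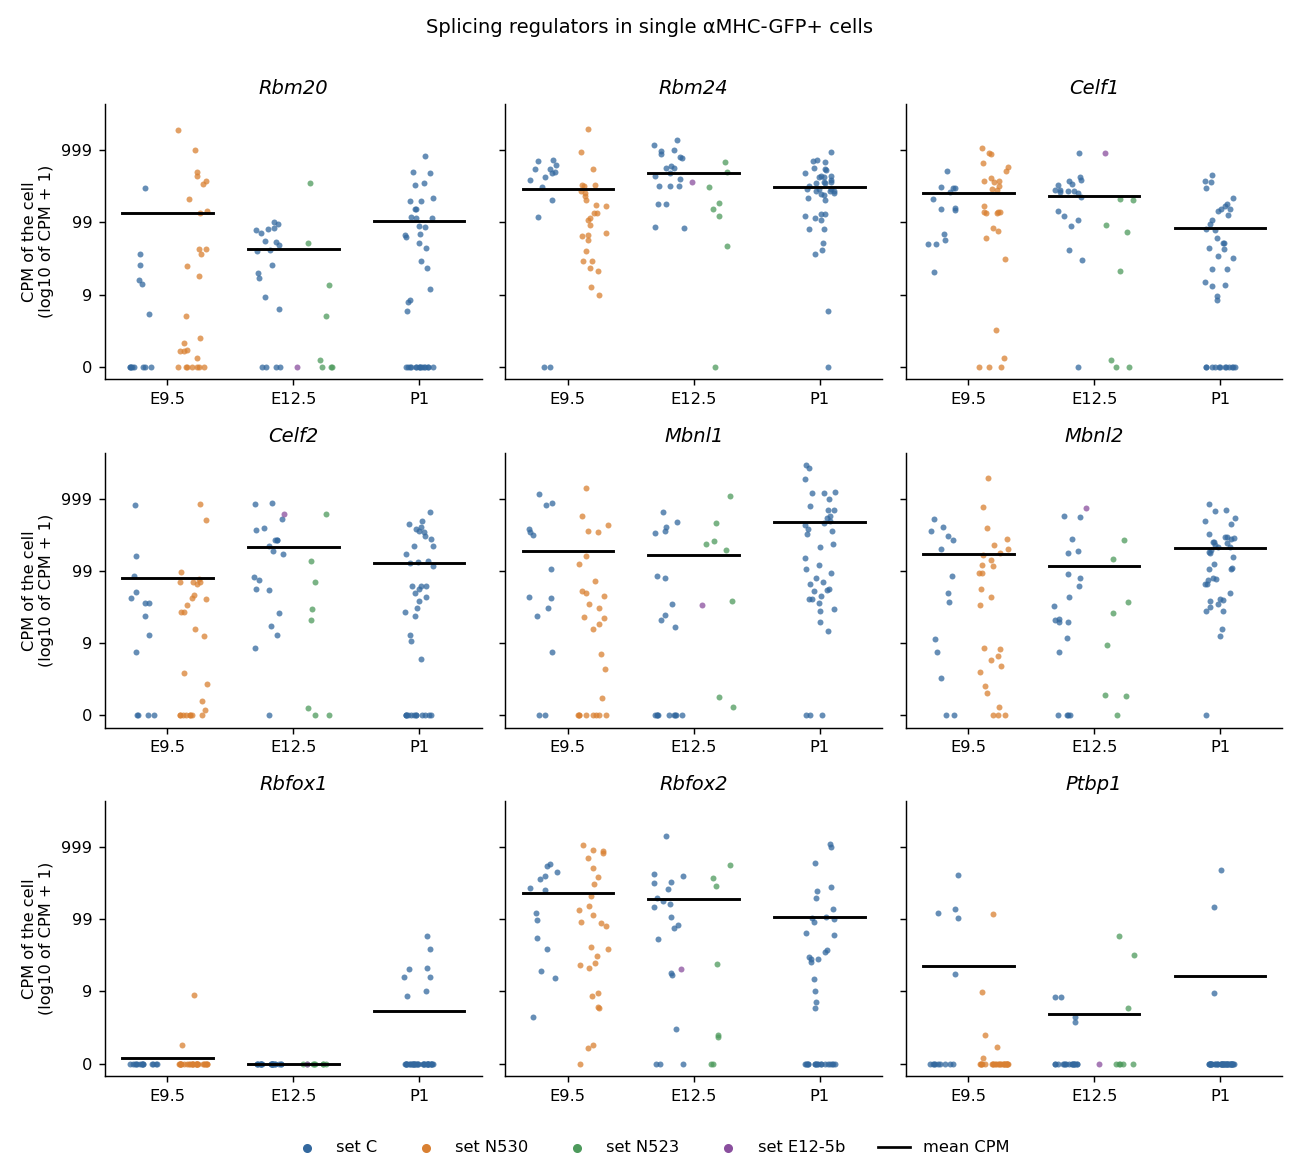
CPM of each of the 9 regulators in each of the 112 cells, on a log10 axis of CPM + 1, by age, with 1 point per cell coloured by naming set and a black line at the mean CPM over all cells of the age. Mbnl1 reached 2890 CPM in the highest P1 cell, and Rbfox1 was above 0 in 2, 0 and 8 cells in time order.

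Promoter sequence is shown for Mbnl1 and Celf1, the muscleblind and CELF genes among the 9 that were called between E9.5 and P1. Of the 9 genes, 7 have a start in the RefSeq promoter table for GRCm38.p6, with 13 starts in all. Rbm20 and Rbfox2 have none there. Mbnl1 (chromosome 3, 60472559 to 60629750, plus strand) has 2 starts, and the 250 bases before them hold 1 CpG for the first and 33 CpG for the second. Celf1 (chromosome 2, 90940259 to 91019497, plus strand) has 1 start with 24 CpG in that window, against a median of 6 over 32851 promoters. Each stretch below is the longest run of a window that lies in no annotated exon. The Celf1 run also stops at the base before the gene, so it does not reach the start at 90940397. No stretch is given for the first start of Mbnl1. The stretches are written 5′ to 3′ on the plus strand of GRCm38.p6, with the letters GGGCGG, the core of a GC box, in capitals. Both strands were searched for it, and GGGCGG occurred on either strand in 32.7% of all promoters.
Mbnl1, second start, chr3:60501095-60501178: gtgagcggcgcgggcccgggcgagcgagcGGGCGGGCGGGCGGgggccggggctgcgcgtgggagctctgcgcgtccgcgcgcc
Celf1, chr2:90940147-90940258: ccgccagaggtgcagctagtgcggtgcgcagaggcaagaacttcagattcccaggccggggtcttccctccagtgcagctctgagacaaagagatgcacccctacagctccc
The Mbnl1 stretch of 84 bases ends at the base before the second start, has a GC content of 88.1% and holds 3 GGGCGG boxes that overlap one another. The Celf1 stretch of 112 bases has a GC content of 61.6% and holds no GGGCGG. The whole windows of 250 bases hold 4 GGGCGG each for Celf1 and for the second start of Mbnl1, so the genes do not differ in this count, and the boxes of Celf1 lie outside the printed stretch. A match is a description of letters only.

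Muscleblind proteins promote the exon choices of differentiated muscle, and MBNL1 is the best known of them in heart. Mbnl1 ranged from 0 to 1391 CPM over E9.5 cells with a median of 31.4 CPM. Over E12.5 cells it ranged from 0 to 1093 CPM with a median of 32.8 CPM, and over P1 cells from 0 to 2890 CPM with a median of 147 CPM. The cells of the 3 ages overlapped widely, and fewer P1 cells were at 0 (3 of 41, against 10 of 42 and 9 of 29). Mean Mbnl1 was 188, 165 and 469 CPM. It rose 2.50-fold between E9.5 and P1 (log2 ratio 1.32, between 0.66 and 1.81 over naming sets) and 2.85-fold between E12.5 and P1 (log2 ratio 1.51, between 0.73 and 1.92). Mbnl1 was the 1 regulator of 8 called higher in P1 to E9.5, where 16.9% of all 8105 genes compared were called higher. It was 1 of 2 called higher of 7 in P1 to E12.5, where 16.4% of 7643 genes were.

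Set C gave the lower end of the first range, with 296 CPM at E9.5 and 469 CPM at P1, so that this call is lost within set C. The call against E12.5 is lost with pooled counts (log2 ratio 0.93), with TMM factors (0.67) and with cells of 3000 or more genes (0.95). After every cell was thinned to 100000 counts, Mbnl1 was found in 29 of 42 E9.5 cells (69.05%, exact 95% interval 52.9 to 82.4), 17 of 29 E12.5 cells (58.6%, 38.9 to 76.5) and 36 of 38 P1 cells (94.7%, 82.3 to 99.4). The embryonic sets of 6 or more cells reached 78.6% at most (set C of E9.5), all under the P1 share. Before thinning the shares were 76.2%, 68.97% and 92.7%. The intervals are over numbers of cells and cover counting error only, not the spread between animals.

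Mbnl2 encodes a second muscleblind protein with overlapping targets. Mbnl2 ranged from 0 to 1946, from 0 to 745 and from 0 to 843 CPM over the cells of the 3 ages, with medians of 51.3, 25.4 and 154 CPM. Its means of 169, 116 and 204 CPM met the 2-fold rule in no comparison. With pooled counts (log2 ratio 1.44), TMM factors (1.18) and means of log2(CPM + 1) (2.21), Mbnl2 was called higher in P1 to E12.5, where its ratio of mean CPM was 0.81. The same held without the highest cell of each age (1.01) and without the 1 cell of set E12-5b (1.12), which is the highest E12.5 cell of Mbnl2. Few P1 cells lacked the gene. The thinned share of cells with Mbnl2 was 69.05% (52.9 to 82.4), 68.97% (49.2 to 84.7) and 97.4% (86.2 to 99.9), with 37 of 38 cells at P1. Mbnl3, the remaining member of the family, went the other way: it had counts in 16 of 42, 15 of 29 and 3 of 41 cells. Mean Mbnl3 was 137, 310 and 21.1 CPM and was called lower at P1 than at both earlier ages (log2 ratios of -2.70 and -3.88). The ratio of Mbnl1 to Mbnl3 in mean TPM was 2.09, 0.755 and 25.9.

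CELF1 binds GU-rich sequence and favours fetal exon choices in striated muscle. Celf1 ranged from 0 to 1066 CPM over E9.5 cells with a median of 153 CPM. Over E12.5 cells it ranged from 0 to 908 CPM with a median of 213 CPM, and over P1 cells from 0 to 446 CPM with a median of 33 CPM. The highest embryonic cells thus lay above every P1 cell, while cells at 0 occurred at each age (3 of 42, 3 of 29 and 12 of 41). Celf1 fell 3.10-fold in mean CPM between E9.5 and P1, from 256 to 82.4 CPM (log2 ratio -1.63, between -1.82 and -1.16). Celf1 and Rbfox2 were the 2 of 8 regulators called lower in P1 to E9.5, a direction in which 34.8% of all genes compared were called. The thinned share with Celf1 was 90.5% (77.4 to 97.3), 79.3% (60.3 to 92.0) and 63.2% (45.99 to 78.2). In set N523 of E12.5 it was found in 4 of 8 thinned cells, a share under that of P1.

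Against E12.5 the log2 ratio of Celf1 at P1 was -1.48, but no regulator was called lower in this comparison, in which 23.0% of genes were. The 20 E12.5 cells of set C had a mean of 257 CPM of Celf1 and the 8 cells of set N523 had 75.3 CPM. The ratio of P1 was therefore -1.64 to the first set and 0.13 to the second. In thinned counts, in TPM and without the highest cell of each age, Celf1 was called lower. P1 then lay only a little under set N523, at 66.8 against 77.5 CPM, 17.39 against 17.41 TPM and 73.3 against 75.3 CPM.

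CELF2, the other CELF protein of the heart, had a different course. Celf2 ranged from 0 to 850, from 0 to 869 and from 0 to 653 CPM over the cells of the 3 ages, with medians of 23.97, 82.4 and 48.1 CPM. Its mean rose 2.71-fold from 78.8 CPM (E9.5) to 213 CPM (E12.5), a log2 ratio of 1.44 (0.27 to 1.68 over naming sets), and was 128 CPM at P1. The value of 0.27 is from set N523 (109 CPM) to set C of E9.5 (90.2 CPM). A single cell held 70.7% of the sum of set N523 and 64.7% of that of set C. Without the highest cell of each set these means were 36.4 and 34.3 CPM. Set N530 had 73.1 CPM, and 44.4 CPM without its highest cell. Celf2 was the 1 regulator of 8 called higher in E12.5 to E9.5, where 8.84% of 8236 genes were called higher, and none was called lower, where 17.0% were. The call is lost with pooled counts (log2 ratio 0.65), in sets N530 and N523 alone (0.57) and without the 3 E9.5 cells that lacked Tnnt2 or Actc1 (1.35, with a combination of sets that no longer had this direction). The ratio of Celf1 to Celf2 in mean TPM was 3.94, 1.27 and 0.785. At E9.5 sets C and N530 had ratios of 2.57 and 4.65. At E12.5 sets C and N523 had 1.27 and 0.856, the second close to the P1 value. Celf1 was the higher of the pair in 34 of 42, 19 of 29 and 17 of 41 cells.

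Mbnl1 and Celf1 stood at nearly the same mean TPM in the embryonic cells (67.7 and 72.3 at E9.5, 51.2 and 54.2 at E12.5) and apart at P1 (138 and 17.4). Their ratio was 0.936, 0.944 and 7.91, and Mbnl1 was the higher of the pair in 15 of 42, 12 of 29 and 31 of 41 cells. The naming sets of the embryonic ages spread widely around these values. At E9.5 sets C and N530 had ratios of 2.12 and 0.593, and at E12.5 sets C and N523 had 0.674 and 4.82. All 4 lay below the P1 value. Over the 109 thinned cells, log2(CPM + 1) of Mbnl1 and Celf1 had a Pearson correlation of -0.16, and 61 cells had both genes. Within the ages it was -0.12, -0.24 and 0.34, so that the sign at P1 was the opposite of the pooled one.

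**Figure D2:**
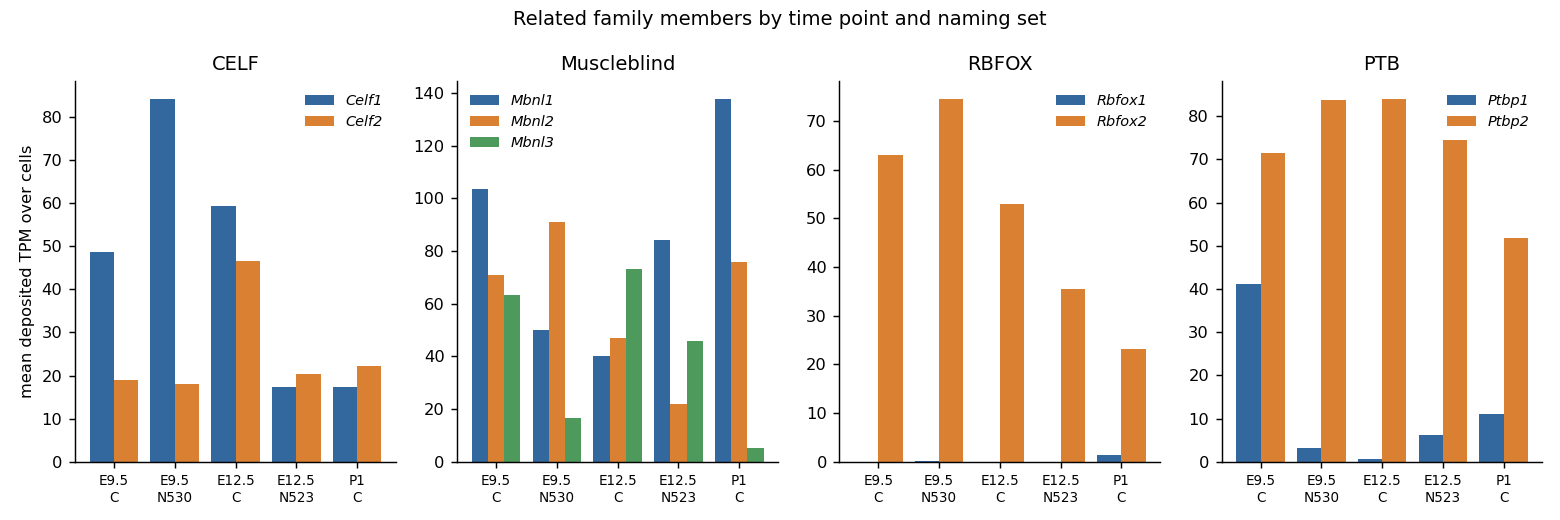
Mean deposited TPM over cells for the CELF, muscleblind, RBFOX and PTB genes in each naming set of 6 or more cells, as bars from 0 on a linear axis that differs between panels. The Mbnl1 bar is the tallest of its family at P1 (138 TPM), where Celf1 and Mbnl3 stand at 17.4 and 5.31 TPM.

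RBFOX2 is the widely used RBFOX protein of the embryonic heart. Rbfox2 ranged from 0 to 1052, from 0 to 1407 and from 0 to 1109 CPM over the cells of the 3 ages, with medians of 93.0, 80.9 and 9.29 CPM. High cells occurred at each age, and cells without the gene numbered 1 of 42, 5 of 29 and 18 of 41. Rbfox2 fell 2.21-fold in mean CPM between E9.5 and P1, from 233 to 105 CPM (log2 ratio -1.14, between -1.16 and -1.11). The call is lost with pooled counts (-0.73) and with TMM factors (-0.56). From E12.5, where its mean was 188 CPM, the log2 ratio of -0.83 was under 2-fold. The thinned share with Rbfox2 was 88.1% (74.4 to 96.02), 72.4% (52.8 to 87.3) and 55.3% (38.3 to 71.4), and in set N523 of E12.5 it was 4 of 8 cells, under the P1 share.

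Rbfox1, a relative used mainly in brain, heart and skeletal muscle, was rare before birth. It had 27 counts in 2 of 42 E9.5 cells, 0 counts in 29 E12.5 cells, which allows up to 0.0594 CPM of the pooled cells, and 30 counts in 8 of 41 P1 cells. The P1 cells that had it reached 57.6 CPM at most, and the P1 mean of 4.44 CPM was under the minimum for a ratio. After thinning, Rbfox1 was found in 0 of 42 E9.5 cells (exact interval up to 8.41%), 0 of 29 E12.5 cells (up to 11.9%) and 8 of 38 P1 cells (21.1%, 9.55 to 37.3). These 8 cells all had Mbnl2 and Rbm24, and 4 of them had Rbfox2. Over all 38 thinned P1 cells, 37 had Mbnl2, 36 had Rbm24 and 21 had Rbfox2, which are similar shares. Rbfox3, the neural member, had counts in 2 E9.5 cells and in no later cell.

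**Figure D3:**
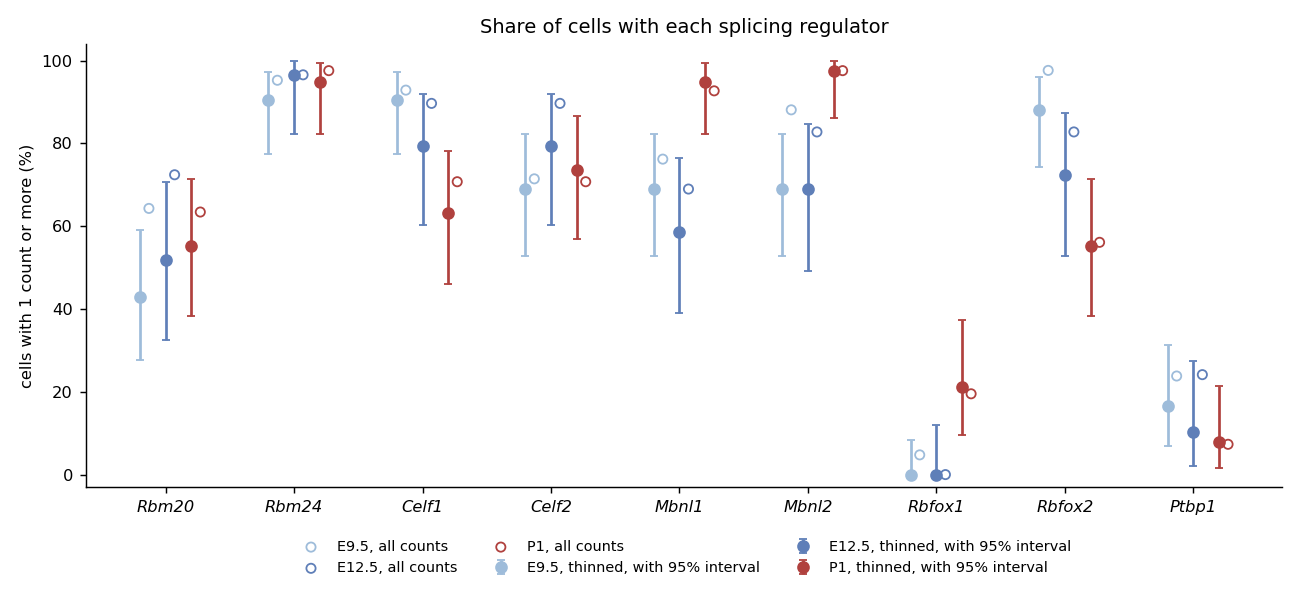
Share of cells with 1 count or more of each regulator at E9.5, E12.5 and P1, in percent. Filled points are shares after thinning each cell to 100000 counts, with exact 95% binomial intervals, and open points are shares from all counts. Mbnl1 and Mbnl2 reached 94.7% and 97.4% at P1, and Celf1 and Rbfox2 had their lowest shares there.

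RBM20 represses titin exons and so sets titin's length. Rbm20 (chromosome 19, 53660989 to 53867083, plus strand) ranged from 0 to 1894, from 0 to 346 and from 0 to 829 CPM over the cells of the 3 ages, with medians of 2.79, 19.0 and 28.6 CPM. Cells at 0 numbered 15 of 42, 8 of 29 and 15 of 41, and at E9.5 the highest cell alone held 33.7% of the summed CPM. Rbm20 rose 2.47-fold in mean CPM between E12.5 and P1, from 42.3 to 105 CPM (log2 ratio 1.31, between 1.02 and 1.36). The call is lost with means of log2(CPM + 1) (0.41) and with TMM factors (0.88). Against E9.5 Rbm20 gave no call, with a log2 ratio of -0.35 over all cells, under 2-fold. Sets C and N530 had means of 27.9 and 187 CPM there. The log2 ratio of P1 to these sets was 1.91 and -0.83. In set C of E9.5, 1 cell held 76.3% of the sum, and the mean was 7.11 CPM without it. The thinned shares of 42.9% (27.7 to 59.0), 51.7% (32.5 to 70.6) and 55.3% (38.3 to 71.4) had intervals that overlapped throughout.

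Titin (Ttn), the giant sarcomere spring, differed between the same sets. At E9.5 sets C and N530 had mean Ttn of 5650 and 30551 CPM, the order that Rbm20 had. Without the highest cell of each of these sets, Rbm20 had means of 7.11 and 123 CPM, in the same order. At E12.5 sets C and N523 had 8066 and 4703 CPM of Ttn, and Ttn reached 22399 CPM at P1. Rbm20 had means of 40.7 and 51.7 CPM in these E12.5 sets, but 1 cell held 83.8% of the sum of set N523, and without the highest cell of each set the means were 37.5 and 9.59 CPM. Ttn, the Z-disc gene Ldb3 and the calcium release channel gene Ryr2, all RBM20 targets, rose between E12.5 and P1 with log2 ratios of 1.64, 1.15 and 2.49, while the kinase gene Camk2d had -0.73 and no call. None of these 4 was called in P1 to E9.5. Over the 109 thinned cells the Pearson correlation of Rbm20 was 0.29 with Ttn, 0.32 with Ryr2, 0.12 with Ldb3 and 0.08 with Camk2d, a description over cells that share libraries and ages.

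RBM24 favours inclusion of muscle exons, and its gene was found in 93.6% of the 109 thinned cells. Rbm24 (chromosome 13, 46418102 to 46431099, plus strand) ranged from 0 to 1985, from 0 to 1402 and from 0 to 958 CPM over the cells of the 3 ages, with medians of 190, 395 and 286 CPM. Its means of 294, 481 and 312 CPM met the 2-fold rule in no comparison, and its thinned shares were 90.5%, 96.6% and 94.7%. Rbm24 had counts in each of the 39 E9.5 cells with both Tnnt2 and Actc1, and in 1 of the 3 without. The genes most like Rbm24 over the thinned cells were Sorbs2 (r = 0.62), Atp1b1 (r = 0.55) and Lgr4 (r = 0.52), out of 4174 genes found in 30% or more of the cells. For the others the top gene pooled over ages was at 0.47 (Actn1) for Celf1, 0.43 (Actr3) for Celf2, 0.42 (Ptgds) for Mbnl1, 0.38 (Dst) for Mbnl2, 0.38 (Cpsf6) for Rbfox2 and 0.35 (Cacnb2) for Rbm20. These values moved between ages, and Rbfox2 with Cpsf6 had 0.68, 0.33 and 0.04.

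PTBP1 blocks muscle and neural exons in undifferentiated cells. Ptbp1 (chromosome 10, 79854432 to 79864435, plus strand) had counts in 10 of 42, 7 of 29 and 3 of 41 cells, and the median cell was at 0 at each age. After thinning it was found in 7 of 42 (16.7%, 6.97 to 31.4), 3 of 29 (10.3%, 2.19 to 27.4) and 3 of 38 cells (7.89%, 1.66 to 21.4). These intervals overlapped throughout. The means of Ptbp1 were 21.7, 3.94 and 15.4 CPM, and a single cell supplied 44.2%, 50.5% and 75.2% of the summed CPM. Ptbp1 was highest in a P1 cell with 476 CPM and an E9.5 cell with 403 CPM, neither of which had 100 CPM of both Tnnt2 and Actc1. The 6 endothelial markers summed to 7804 and 1904 CPM in these cells and had a median of 0 over the cells of each age. Ptbp1 averaged 169 CPM in the 3 E9.5 cells without both cardiac markers, all of set C, and 10.4 CPM in the 39 cells with them. The 40 P1 cells with both markers averaged 3.92 CPM. The part of other cell types in the level of Ptbp1 was not tested.

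Annotation also limits the counts of Ptbp1. In GENCODE M21, its exon bases are shared with 3 opposite-strand genes, Gm17134 (12.7%), E130317F20Rik (8.55%) and Plppr3 (5.16%). The sources used here do not say whether strand was used in counting, so that reads of Ptbp1 and these genes cannot be told apart there. Of the 3, the count table used here holds E130317F20Rik. E130317F20Rik had counts in 5 of 42, 2 of 29 and 1 of 41 cells, and 1 of these cells also had Ptbp1. Ptbp2, known as the neural PTB gene, was higher than Ptbp1 in mean TPM at each age, with 79.6, 103 and 51.8 TPM against 15.8, 2.16 and 11.0 TPM. Ptbp2 was found in 27 of 42, 21 of 29 and 20 of 41 cells and was called in no comparison.

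**Figure D4:**
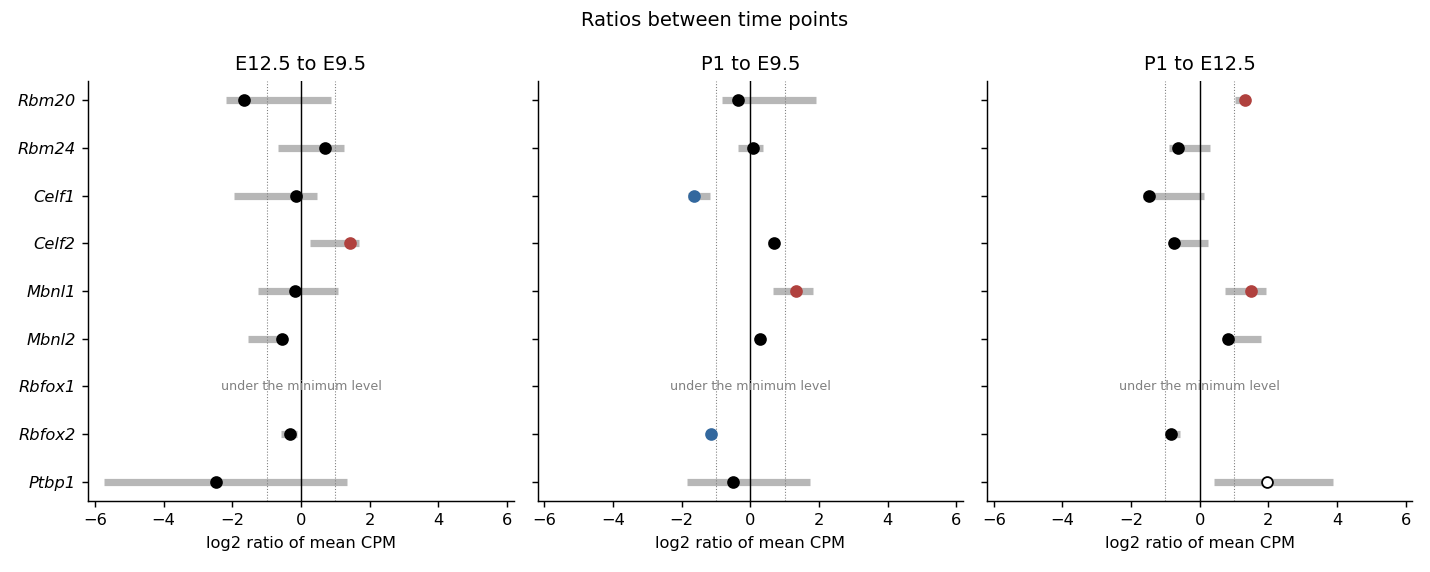
Log2 ratio of mean CPM between ages for the 9 regulators, with the ratio over all cells as a point and the range over combinations of naming sets as a grey bar. Red points are called higher, blue points lower and black points not called, the open point is Ptbp1 under 10 CPM in P1 to E12.5, Rbfox1 has no point because it was under the minimum level, and dotted lines mark 2-fold. Mbnl1 is red in both comparisons with P1. The bars of Rbm20, Rbm24 and Ptbp1 cross 0 in both comparisons with E9.5, and those of Celf1 and Mbnl1 cross 0 in E12.5 to E9.5.

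The cells differed in which of the 9 genes they held. The number found per thinned cell had medians of 5, 5 and 6 of the 9, with ranges of 1 to 8, 1 to 7 and 4 to 8, and no cell had all 9. Rbm24 and Celf2 were found together in 78 of the 109 cells, and their correlation was 0.38 over all cells and 0.36, 0.33 and 0.37 within the ages. Rbm24 and Rbfox2 had 0.26. Over all cells, all other pairs of the regulators lay between -0.25 and 0.21, in sparse counts. Within the ages they spread more widely. Ptbp1 had -0.45 with both Rbm24 and Mbnl2 at E12.5. At P1 Celf1 with Mbnl1 and Rbm20 with Mbnl2 each had 0.34.

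Beside the regulators stands the general splicing machinery. Of 30 core spliceosome genes compared in P1 to E9.5, 18 were lower, against 34.8% of all genes, and 0 higher, against 16.9%, with a median log2 ratio of -1.34 against -0.56 over all genes compared and -0.13 over the 8 regulators. The called genes with the largest ratios were Prpf4 (-2.90) and Prpf3 (-2.74) of the U4/U6 particle, the branch point binding gene Sf1 (-2.56) and the U2 gene Sf3a1 (-2.33). In P1 to E12.5, 14 of 29 core genes were lower, against 23.0% of all genes, and 1, Prpf31, was higher (1.20). The earlier step, E12.5 to E9.5, had 5 of 31 lower and 0 higher, near the 17.0% of all genes that were lower.

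SR proteins bind exons and help their use. Of their genes 5 of 12 were lower and 0 higher in P1 to E9.5, near the 34.8% of all genes that were lower. The numbers were the same in P1 to E12.5, where 23.0% of all genes were lower, and among the called genes of both were Srsf1 (-1.94 and -2.66) and Srsf9 (-2.43 and -2.56). Of 7 SR protein kinase genes, Clk3 (-4.25) and Clk4 (-2.90) were lower at P1 than at E9.5, a share under that of all genes. In P1 to E12.5 Clk3 (-4.82) and Clk4 (-2.999) were lower and Clk2 (3.10) was higher, near the shares of all genes (23.0% and 16.4%). Partners and shared regulators of exon choice such as the hnRNP genes had 11 of 22 lower (34.8% over all genes) and 0 higher in P1 to E9.5, with Hnrnpl at -2.36. In P1 to E12.5 these had 3 lower and 2 higher (Ddx5 at 1.14 and Raver1 at 1.04), both shares under those of all genes (23.0% and 16.4%). Of 12 other tissue-biased factors, 3 were compared in P1 to E9.5 and 4 in P1 to E12.5, of which the neural gene Nova1 was lower in both (-4.59 and -5.39), close to the rate of all genes (34.8% and 23.0%).

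Paralogs of the regulators were lower in 4 of 6 compared in P1 to E9.5, against 34.8% of all genes, and higher in 0. These were Mbnl3, Ptbp3 (listed as Rod1, -1.64), Rbm38 (-1.26) and Rbpms2 (-1.19), while Ptbp2 (-0.25) and Rbpms (-0.71) were not called. In P1 to E12.5 Mbnl3 was the 1 of 6 that was lower, a share under the 23.0% of all genes. In E12.5 to E9.5 Rbm38 (-1.23) and Rbpms2 (-1.31) were lower, 2 of 6 against 17.0% of all genes. Celf3, Celf5 and Celf6 had no counts in any cell used, and Celf4 had counts in 2 E9.5 and 2 E12.5 cells.

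Transcripts known as targets of the 9 proteins are the last list. Of 23 compared in P1 to E9.5, 8 were higher and 4 lower, against 16.9% and 34.8% of all genes, with a median log2 ratio of 0.66. Of 21 compared in P1 to E12.5, 10 were higher and 1 lower, against 16.4% and 23.0% of all genes, with a median of 0.97 against -0.33. Nrap (8.49 and 3.01), Fhod3 (1.93 and 2.55) and Tnnt2 (2.48 and 1.64), genes of the sarcomere and its assembly, rose in both. Tpm2, a tropomyosin gene, fell in both (-2.80 and -1.30), and the transcription factor gene Mef2c fell in the first (-2.36). The step from E9.5 to E12.5 had 1 of 21 higher, Trdn (1.08), and 2 lower, against 8.84% and 17.0% of all genes. A list of 8 cardiomyocyte markers, which shares Tnnt2 with the targets, had similar medians. They were 0.73 in P1 to E9.5, with 3 of 8 higher and 3 lower, and 0.96 in P1 to E12.5, with 3 of 7 higher and 2 lower.

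**Figure D5:**
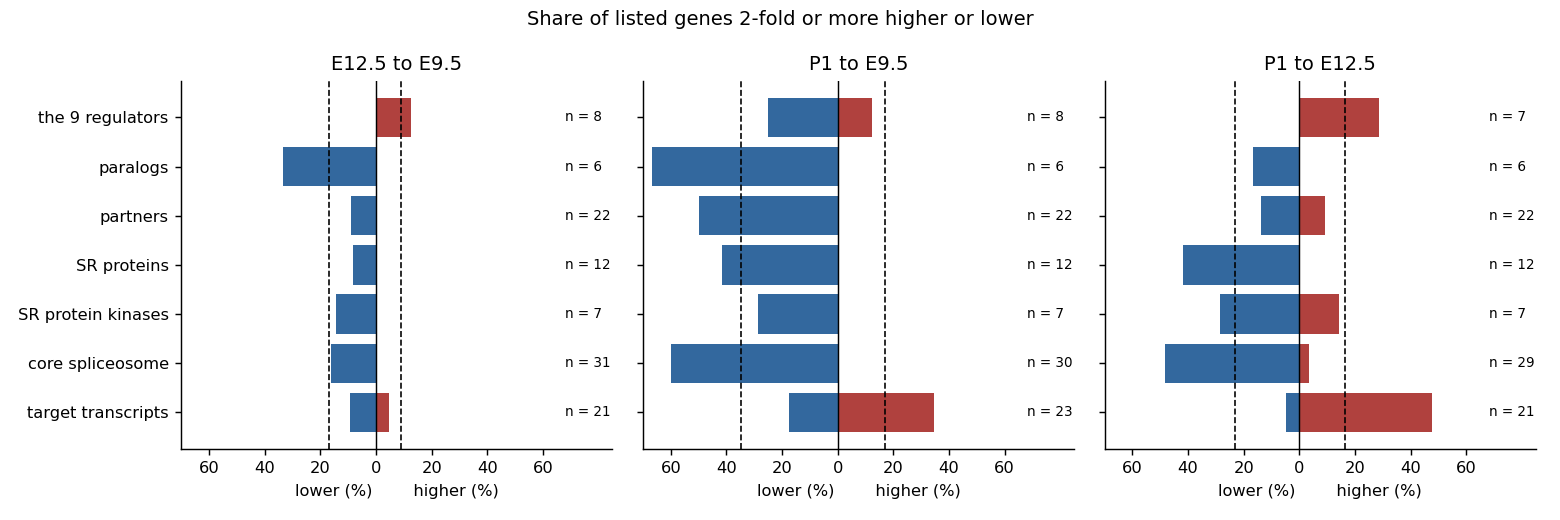
Share of the compared genes of each list that were called higher (red, to the right) or lower (blue, to the left) in each comparison, in percent, without the few other tissue-biased factors. Dashed lines mark the share of all compared genes called in that direction, 34.8% lower and 16.9% higher in P1 to E9.5. In that panel the bar of the core spliceosome (18 of 30) passes the line for lower genes, and that of the 9 regulators (2 of 8) does not.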

How the data were processed

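cDNA of single αMHC+ cells was made in Fluidigm C1 chips (SMART-Seq V4) and read on a NextSeq, 1 read per fragment. The authors mapped reads with OLego and deposited counts per gene symbol from featureCounts, together with TPM that the authors computed from these counts and deposited on a linear scale. GRCm38 and mm10 are the builds in the submitters' processing notes. The tables hold 123 cells, 1 column each, and every column matched the title of 1 sample.

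Cells with fewer than 2000 genes were left out, which removed 11 P1 cells. CPM is the count divided by the cell's total, times 1000000. Thinning drew 100000 counts per cell without replacement (seed 1) and left out 3 P1 cells. Shares carry exact Clopper-Pearson intervals at 95%. A group without counts was set to 3 counts of its total. All 9 regulators are named, as are all paralogs, Ttn, Ldb3, Camk2d and Ryr2, the called genes with the 4 largest ratios of a list, and up to 3 genes most like a regulator over thinned cells. Of the longer lists only some of these are given. Raver1 is outside this rule and was named after its values were seen. The regulators and lists were chosen with earlier results of these data known. Alternatives included pooled counts, TMM factors (edgeR 4.0.16), TPM, other minimum levels and single naming sets. The ratio script was tested on simulated counts. Depth per cell is given with the cells above and limits P1 most. Computation used Python 3.11.15, numpy 2.4.6, pandas 2.3.3 and scipy 1.17.1. Promoters are from RefSeq and exon overlaps from GENCODE M21.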

Additional observations from a re-analysis of the deposited data

Results flagged for a closer look

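The ratio of E12.5 to E9.5 had opposite directions in the 2 pairs of naming sets for 4 of the regulators. The difference was not tested, since the labels do not say what the sets stand for and give no replicates of them. The share of all genes with opposite directions was not computed, so this number does not set the regulators apart. Of the paralogs compared, Ptbp3 and Rbpms also had opposite directions, while Mbnl3, Ptbp2, Rbm38 and Rbpms2 did not. Rbm20 had a log2 ratio of 0.54 within set C and -1.85 from set N530 to set N523. Celf1 had 0.48 and -1.95 in the same order. For Rbm20, a single cell held 76.3% of the sum of set C of E9.5, 36.3% of that of set N530 and 83.8% of that of set N523. For Mbnl1 the values were -1.26 and 1.09, and for Ptbp1 -5.74 and 1.34. The second value of Ptbp1 is from means of 4.6004 and 11.7 CPM, which average under 10 CPM, and 1 cell held 91.2% of the sum of set N530 and 61.8% of that of set N523. The first rests in part on the 3 cells of E9.5 without both cardiac markers, which are all in set C and had 403, 104.4 and 0 CPM of Ptbp1. Depth differed between these sets, and its part in the ratios was not tested.

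The 11 P1 cells with fewer than 2000 genes, which entered no comparison, held 4903 to 149120 counts each and 714929 in all. A count of 0 allows up to 4.196 CPM of these pooled cells, and 7 of the 9 regulators lay above it. Pooled CPM was 499 for Mbnl1, 477 for Rbm24, 252 for Celf2, 213 for Mbnl2, 137 for Celf1, 117 for Rbm20 and 14.0 for Ptbp1. Rbfox1 and Rbfox2 had 0 counts. In the 41 cells that were kept, pooled CPM of Rbfox2 was 119.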

How the results depend on the processing

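Direction was kept in all alternatives for Mbnl1 (log2 ratios of P1 to E9.5 from 0.66 to 2.33, and of P1 to E12.5 from 0.67 to 2.66), Celf1 and Rbfox2 (P1 to E9.5, -2.45 to -1.16 and -2.76 to -0.56), Rbm20 (P1 to E12.5, 0.41 to 2.00) and Celf2 (E12.5 to E9.5, 0.57 to 2.31). The number of regulators called was within 1.5 times the main number in 72 of 98 recomputed counts. The other 26 follow, and their cause was not tested. For E12.5 to E9.5, 0 were higher with pooled CPM, with cells at 100 CPM of Tnnt2 and Actc1, and at 4-fold, while 2 (Mbnl1 and Ptbp1) were lower in set C and 3 (Rbm20, Celf1 and Mbnl2) in sets N530 and N523. For P1 to E9.5, 3 were higher (Celf2, Mbnl1 and Mbnl2) with means of log2(CPM + 1) and with a minimum of 3000 genes, 2 with TMM factors, at 1.5-fold and with no minimum level, and 0 at 4-fold. In set C the 1 gene higher in P1 to E9.5 was Rbm20, not Mbnl1. In sets N530 and N523 the 1 gene higher in E12.5 to E9.5 was Mbnl1, not Celf2. In P1 to E9.5 1 was lower (Celf1) with pooled CPM and TMM factors and 0 at 4-fold. For P1 to E12.5, 1 was higher with TMM factors (Mbnl2) and with a minimum of 3000 genes (Rbm20), 0 at 4-fold and 4 with no minimum level. For this comparison 1 was lower after thinning, with means of log2(CPM + 1), with minimums of 1000 and 3000 genes, in set C, without the highest cell and at 1.5-fold (Celf1 or Rbfox2), and 2 with TPM (both). Against pooled CPM, TMM factors shifted every log2 ratio by 0.43 (E12.5 to E9.5), 0.17 (P1 to E9.5) or -0.26 (P1 to E12.5). Leaving out the 1 cell of set E12-5b, an alternative chosen after seeing the data, added Mbnl2 to the genes higher in P1 to E12.5. At P1 depth limits the values, since 1 count of a cell thinned to 100000 is 10 CPM. No paired analysis was possible because the values come from no test and the cells carry no pairing label.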

Other observations

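Over the 109 thinned cells, Rbm24 had a correlation of 0.33 with Ttn and 0.41 with Ldb3. Among the 105 of these cells with 100 CPM or more of both Tnnt2 and Actc1 the values were 0.03 and 0.24. Within the ages, over all thinned cells, Rbm24 had 0.30, 0.44 and 0.55 with Ttn and 0.39, 0.44 and 0.51 with Ldb3 (E9.5, E12.5, P1), and at E12.5 every cell had both markers. Ptbp1, found in 13 of the 109 cells, had -0.49 with Ttn over all cells and -0.26 over the 105. Within the ages, over all thinned cells, Ptbp1 had -0.51, -0.53 and -0.56 with Ttn, from few cells with the gene. Of Rbm20, the correlation with Ttn was 0.29 over all cells and 0.25 over the 105.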
